A study of Mus musculus with 10 samples.

Results

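The genes described here encode the enzymes of glycolysis, the transporters that bring glucose in and carry lactate out, the enzymes of glycogen turnover, and a set of genes that respond to low oxygen. They were chosen by name, as a list of 35 gene symbols, and all 35 were found among the 20611 genes listed for each mouse. RNA was sequenced from the skin of 5 mice with a keratinocyte-driven Klk6 transgene (Klk6+) and 5 control littermates (WT), each group made up of 3 males (replicates 1 to 3) and 2 females (replicates 4 and 5). Klk6 encodes kallikrein-related peptidase 6, a secreted serine protease. In Klk6+ mice the bovine keratin 5 promoter drove a tetracycline transactivator that switched on a Myc/His-tagged murine Klk6 gene when no doxycycline was present, in epidermal keratinocytes and in some other stratified squamous epithelia. The mice were backcrossed to C57BL/6 and used from generation F4 on, and a WT mouse carried either a single transgene, which the labels call non-expressing, or none. Per the labels' protocols doxycycline chow returned at 10 to 11 weeks of age, and skin was taken at 14 to 16 weeks. Libraries were made from poly(A) RNA of snap-frozen whole skin and sequenced in single 50-cycle reads, with 26521019 to 41970272 counted reads per library, of which the member with the fewest, Hk3 in Klk6+ 2, had 52. Klk6 itself was measured at 10293 to 14773 CPM in Klk6+ (read counts scaled by TMM to the library total, as CPM) and at 12.7 to 26.5 CPM in WT, and the protocols do not say how that level fits with the return of doxycycline.

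Glycolysis splits glucose into pyruvate in the cytosol, and most of its steps can be carried out by more than one isoform, each encoded by its own gene. Skeletal muscle uses its own forms of phosphofructokinase (Pfkm), phosphoglycerate mutase (Pgam2), enolase (Eno3) and glycogen phosphorylase (Pygm), and muscle and fat take up glucose through the insulin-responsive transporter encoded by Slc2a4. Most other cells, keratinocytes among them, rely on general isoforms such as those encoded by Slc2a1, Pfkl, Pfkp, Pgam1 and Eno1. Mouse skin lies on a thin sheet of skeletal muscle, the panniculus carnosus, and whole skin therefore holds both kinds of transcript. Hypoxia-inducible factor 1 is a transcription factor whose alpha subunit, encoded by Hif1a, is destroyed when oxygen is plentiful, and many glycolytic genes are among its known targets.

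The clearest pattern was a split by isoform. All 5 muscle isoforms were lower in Klk6+ skin, with a median log2 fold change of -3.36, and 5 of the 6 general isoforms were higher, with a median of 1.82 over the 6. The exception was Pygl, which was lower. All 35 members had enough counts to be tested. Of these, 12 were higher and 17 lower in Klk6+ at an adjusted p below 0.05 (edgeR quasi-likelihood test with sex as a covariate, adjusted over all 14861 genes tested), and 6 were not called. Calls were common in this comparison: 72.8% of all genes tested were called, 37.7% higher and 35.1% lower. These shares are the background for every count of called genes below. The members' 34.3% higher was close to that background and their 48.6% lower was above it, and no test of the list was made. Without the 5 muscle isoforms the other 30 members split evenly, 12 higher and 12 lower. Their median log2 fold change was -0.05, that of all 35 members -0.38, and that of all genes tested 0.04. The CPM of the genotypes did not overlap for 9 members that were higher and 12 that were lower, against 30.1% and 27.0% of all genes (57.0% in all).

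**Figure D1:**
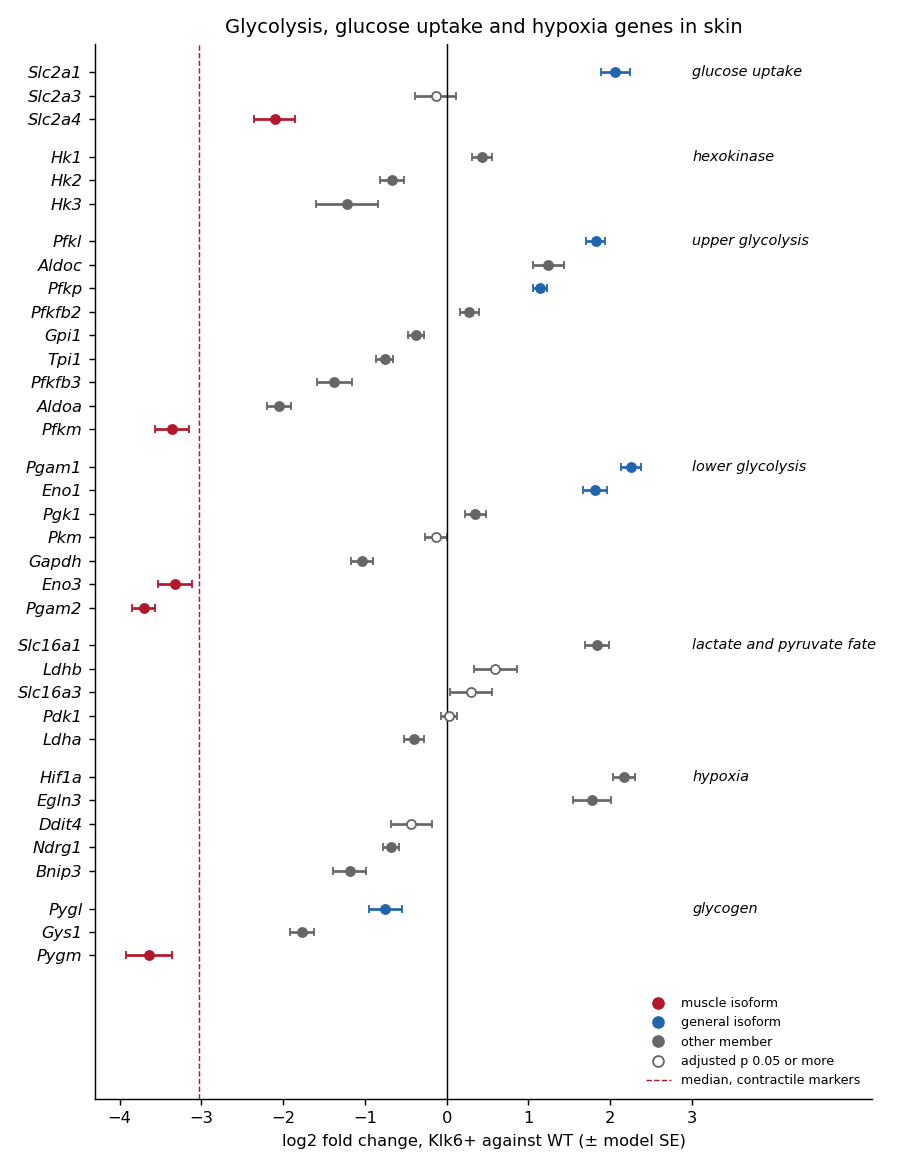
Log2 fold change of each of the 35 members in Klk6+ against WT skin (x axis, points; bars are ± the model standard error, 5 mice per genotype), grouped by role. Red points are the muscle isoforms, all at or below -2.10, blue points the general isoforms, open points members with an adjusted p of 0.05 or more, and the dashed line the median of 16 contractile muscle genes (-3.03).

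Phosphoglycerate mutase, which moves the phosphate group of phosphoglycerate late in the pathway, showed the exchange most plainly. Values below are in order of replicates 1 to 5. Pgam2, the muscle form (chromosome 11, 5801640 to 5803733, minus strand, GRCm38), stood at 539, 584, 666, 536 and 548 CPM in WT and 50.0, 35.9, 55.0, 34.8 and 44.8 CPM in Klk6+. Every Klk6+ library was far below every WT library, a 13.1-fold lower level (log2 fold change -3.71 ± 0.15, the fitted value ± its standard error, adjusted p = 8.34e-08). Pgam1, the general form (chromosome 19, 41911923 to 41918660, plus strand), stood at 118, 149, 129, 130.1 and 124 CPM in WT and 531, 569, 768, 598 and 622 CPM in Klk6+. Here every Klk6+ library was above every WT library, 4.75-fold higher on average (2.25 ± 0.12, adjusted p = 4.12e-07). Of the 50-base windows of Pgam1, 41.5% also occur in transcripts of other genes, so its level and the shares below are less sure. In FPKM, which is scaled to transcript length and so allows 2 genes to be set side by side, the share of Pgam2 in the pair was 91.1% ± 0.831 in WT and 14.2% ± 2.30 in Klk6+ (mean ± SD, n = 5 each, as for all levels below). The log2 ratio of Pgam2 to Pgam1 was 3.35 ± 0.15 in WT and -2.61 ± 0.26 in Klk6+, a difference of -5.96 (two-sided exact permutation p = 0.00794, which 5 libraries a genotype cannot go below; adjusted p = 0.00907 over the 8 isoform ratios examined). Each gene on its own already separated the genotypes, in opposite directions, so the ratio had to reach this smallest p and adds no support. The same holds for the Pfkm, Eno3 and Slc2a4 ratios below. The summed FPKM of Pgam1 and Pgam2 was 767 ± 59.8 in WT and 381 ± 51.9 in Klk6+.

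The promoters of this pair are shown because the genes encode the same enzyme activity and moved in opposite directions. Each run is the 250 bases before the RefSeq start on GRCm38.p6, written 5′ to 3′ on the gene's strand. In Pgam1 (chr19:41911621-41911870, plus strand) capitals mark the core of the hypoxia response element, ACGTG or GCGTG on either strand. In Pgam2 (chr11:5803797-5804046, minus strand) capitals mark E-boxes, CANNTG, the motif that myogenic factors of the MyoD family are known to bind.
Pgam1: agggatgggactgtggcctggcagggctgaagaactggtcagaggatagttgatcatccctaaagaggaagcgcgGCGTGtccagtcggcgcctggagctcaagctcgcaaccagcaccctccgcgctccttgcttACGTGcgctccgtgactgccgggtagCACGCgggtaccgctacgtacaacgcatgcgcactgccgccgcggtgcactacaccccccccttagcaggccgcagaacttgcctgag
Pgam2: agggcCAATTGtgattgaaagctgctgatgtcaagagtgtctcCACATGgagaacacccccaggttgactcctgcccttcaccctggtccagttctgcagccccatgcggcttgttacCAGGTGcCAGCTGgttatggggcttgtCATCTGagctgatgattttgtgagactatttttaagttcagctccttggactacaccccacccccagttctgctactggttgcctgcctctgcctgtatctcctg
The Pgam1 window held 3 hypoxia response element cores and 0 E-boxes, and the Pgam2 window held 0 cores and 5 E-boxes. Among promoters of all genes tested, 52.4% of such windows held at least 1 core and 59.3% at least 1 E-box. Cores did not part the other isoforms in this way, since Pgam2 was the sole muscle isoform among the 4 matched with no core in any window. A core was in 5 of 7 windows of the muscle isoforms (71.4%) and in 8 of 8 of the general isoforms, and an E-box in 6 of 7 and 2 of 8. A match describes the letters and does not show binding.

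Phosphofructokinase commits sugar to glycolysis. Pfkm (chromosome 15, 98092589 to 98132451, plus strand) stood at 1067, 1120.3, 1504, 956 and 1338 CPM in WT and 140.0, 85.4, 147, 85.7 and 127 CPM in Klk6+, which is 10.3-fold lower (-3.36 ± 0.21, adjusted p = 7.38e-07). Pfkl, the liver-type gene expressed in many tissues, stood at 41.2, 41.6, 50.6, 46.4 and 37.0 CPM in WT and 141, 141, 182, 138 and 165 CPM in Klk6+, a 3.54-fold rise (1.82 ± 0.12, adjusted p = 8.28e-07). No library of either gene crossed into the other genotype's range. Pfkp, the platelet-type gene, rose 2.21-fold and stood at 62.7, 75.9, 64.8, 65.1 and 60.9 CPM in WT and 138, 139.8, 157, 137 and 155 CPM in Klk6+ (1.14 ± 0.09, adjusted p = 1.7e-06). The share of Pfkm in the summed FPKM of the 3 genes was 93.7% ± 1.18 in WT and 34.6% ± 4.87 in Klk6+. In Klk6+ the 3 genes stood at similar FPKM, with means of 38.2 for Pfkm, 37.7 for Pfkl and 33.3 for Pfkp and ranges that overlapped. The log2 ratios of Pfkm to Pfkl and to Pfkp changed by -5.20 and -4.51 (two-sided exact permutation p = 0.00794 for each, adjusted p = 0.00907).

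Enolase makes phosphoenolpyruvate. Eno3, the muscle form (chromosome 11, 70657202 to 70662513, plus strand), stood at 1985, 1895, 2676, 2086 and 2505 CPM in WT and 277, 168, 302, 165 and 214 CPM in Klk6+, 9.98-fold lower (-3.32 ± 0.21, adjusted p = 8.01e-07), with no overlap. Eno1, the general form (chromosome 4, 150236721 to 150248879, plus strand), stood at 8.70, 11.2, 11.2, 10.4 and 10.5 CPM in WT and 28.5, 36.0, 45.6, 31.8 and 40.7 CPM in Klk6+ and was higher (1.81 ± 0.14, adjusted p = 2.35e-06). The count of Eno1 is a poor guide to its level. It corresponds to 130 bases of transcript at the deposited FPKM, where the annotated exons span 5379 bases. Eno1 was among the lowest in this ratio, out of 12256 genes compared, those with enough counts and a single annotated entry. Of its 50-base windows 49.5% also occur in transcripts of other genes, nearly all in the near copy Eno1b. By FPKM, Eno1 stood at 79.0 ± 7.33 FPKM in WT and 279 ± 51.5 FPKM in Klk6+, and Eno1b, with a log2 fold change of 1.91 ± 0.12 by counts, moved the same way. The summed counts of Eno1 and Eno1b, most of them counted for Eno1b, gave 1.90 (adjusted p = 7.39e-07). Reads counted for neither gene do not enter this sum. The log2 ratio of Eno3 to Eno1 by FPKM was 4.21 ± 0.21 in WT and -0.93 ± 0.43 in Klk6+ (difference -5.14, two-sided exact permutation p = 0.00794, adjusted p = 0.00907), and the share of Eno3 in the 2 genes' FPKM was 94.8% ± 0.743 in WT and 34.7% ± 6.88 in Klk6+.

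Glucose transporters exchanged places as well. Slc2a4 (chromosome 11, 69942539 to 69948188, minus strand) stood at 141, 176, 231, 208 and 205 CPM in WT and 52.3, 29.8, 47.6, 28.2 and 65.5 CPM in Klk6+, 4.30-fold lower (-2.10 ± 0.25, adjusted p = 2.99e-05). Slc2a1, which encodes the main glucose transporter of dividing epithelium (chromosome 4, 119108711 to 119137983, plus strand), stood at 42.4, 44.0, 48.4, 47.3 and 35.6 CPM in WT and 136, 152, 227, 155 and 241 CPM in Klk6+, 4.18-fold higher (2.06 ± 0.18, adjusted p = 4.55e-06). Both were free of overlap, and Slc2a1 was highest in Klk6+ 3 and Klk6+ 5. The summed FPKM of Slc2a1, Slc2a3 and Slc2a4 was 80.4 ± 12.1 in WT and 82.9 ± 22.2 in Klk6+ (SD, n = 5 each), while the share of Slc2a4 was 78.0% ± 3.26 in WT and 17.8% ± 4.71 in Klk6+. The log2 ratio of Slc2a4 to Slc2a1 was 1.99 ± 0.29 in WT and -2.21 ± 0.44 in Klk6+ (difference -4.20, two-sided exact permutation p = 0.00794, adjusted p = 0.00907). Slc2a3, a high-affinity transporter of neurons and leukocytes, was low at 1.73 and 1.58 FPKM and was not called (-0.14 ± 0.25, adjusted p = 0.635). Without Klk6+ 3 and Klk6+ 5 it was called lower (-0.59, adjusted p = 0.0337). Of 7 neutrophil markers tested 6 were higher in Klk6+ (median 5.44), and Mmp9 (named after its value was seen) was not called (-0.33 ± 0.43). The rises included Retnlg (5.61 ± 1.01), Cxcr2 (4.27 ± 0.30) and Mmp8 (6.31 ± 0.91). Their summed FPKM was 11.2, 19.8, 13.2, 13.8 and 22.9 in WT and 83.4, 40.9, 442, 77.4 and 343 in Klk6+, highest in those 2 libraries. The part of neutrophils in the Slc2a3 and Slc2a1 values was not tested.

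**Figure D2:**
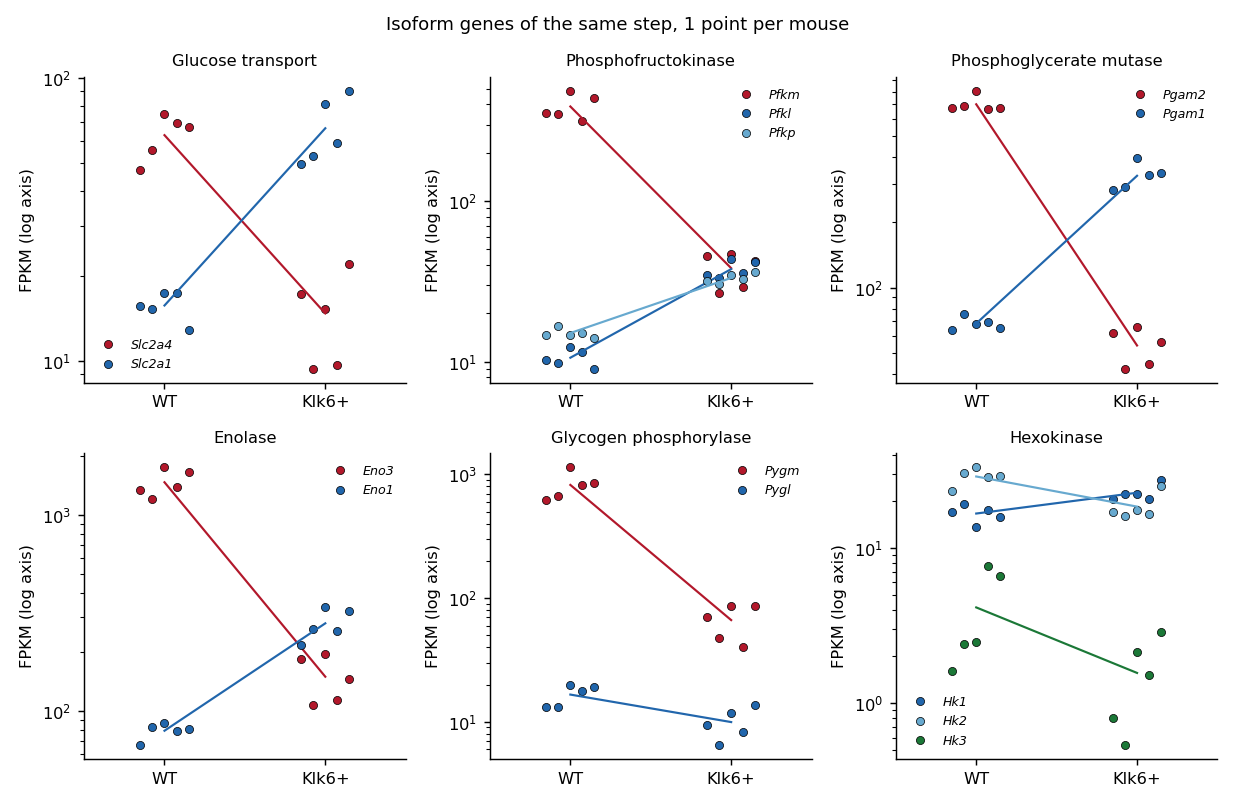
FPKM (y axis, log scale) of isoform genes of the same step in WT and Klk6+ skin, 1 point per mouse with lines joining the genotype means; red marks the muscle isoform. Mean lines cross for glucose transport, phosphoglycerate mutase, enolase and Hk1 with Hk2, meet for phosphofructokinase, and stay apart for glycogen phosphorylase, where Pygm was above Pygl in every library.

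All 3 glycogen members fell, beside 35.1% lower and 37.7% higher of all genes tested. Glycogen phosphorylase releases glucose units from glycogen, and its muscle gene Pygm (chromosome 19, 6384399 to 6398459, plus strand) stood at 1883, 2146, 3538, 2467 and 2644 CPM in WT and 214, 153, 273, 118 and 259.5 CPM in Klk6+, 12.5-fold lower (-3.64 ± 0.28, adjusted p = 2.18e-06). The liver-type gene Pygl stood at 39.5, 41.7, 61.2, 53.3 and 57.8 CPM in WT and 28.6, 20.5, 36.8, 24.1 and 40.7 CPM in Klk6+ and was lower too (-0.75 ± 0.20, adjusted p = 0.00591), with Klk6+ 5 just above WT 1. The share of Pygm in the pair's FPKM was 98.0% ± 0.184 in WT and 86.7% ± 2.23 in Klk6+, above that of Pygl in every library (difference of the log2 ratio -2.90, two-sided exact permutation p = 0.00794, adjusted p = 0.00907). Gys1, the glycogen synthase of muscle and most tissues outside liver, stood at 257 ± 27.2 CPM in WT and 75.4 ± 14.9 CPM in Klk6+ (-1.77 ± 0.15, adjusted p = 3.3e-06). Of 16 further genes of glycogen metabolism 11 fell and 1 rose (median -1.78). The falls included Phkg1 (-4.03 ± 0.31), the muscle catalytic subunit of phosphorylase kinase, the regulatory subunit Phkb (-2.30 ± 0.16), and Epm2a (-3.27 ± 0.16), which encodes the glycogen phosphatase laforin. The single rise was Ppp1r3b (2.07 ± 0.19, adjusted p = 4.91e-06), a subunit that targets a phosphatase to glycogen.

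Transcripts of the contractile apparatus were lower in the same libraries. Of 16 contractile genes of skeletal muscle 15 were lower in Klk6+ and 1 (Myh7, named after its value was seen) was not called, with a median of -3.03; Acta1, Tnnt3 and Tnnc2 had log2 fold changes of -3.06 ± 0.18, -3.17 ± 0.25 and -3.61 ± 0.22. Their summed FPKM was 37644, 34699, 51571, 43999 and 46333 in WT and 5084, 3319, 5178, 3198 and 5504 in Klk6+. In bulk skin, fewer muscle fibres and less of a transcript per fibre cannot be told apart. Set against this sum within each library, per 1000 FPKM of contractile transcript, Eno3 stood at 34.3 ± 1.61 in WT and 33.6 ± 4.54 in Klk6+ and Pfkm at 9.11 ± 1.12 in WT and 8.60 ± 0.669 in Klk6+, so that both differed between genotypes by less than the SD between mice. No test was made of these ratios. Pgam2 ranged over 14.4 to 19.7 in WT and 10.2 to 13.9 in Klk6+, without overlap, and Pygm over 16.6 to 22.1 in WT and 12.6 to 16.8 in Klk6+, with Klk6+ 3 just above WT 1. Slc2a4 went the other way, over 1.26 to 1.60 in WT and 2.84 to 4.02 in Klk6+. So did Gys1, over 1.35 to 1.88 in WT and 3.59 to 4.77 in Klk6+, and Aldoa, over 103 to 123 in WT and 225 to 317 in Klk6+, each with no overlap. Slc2a4 is also expressed in fat, and all 7 adipocyte markers were lower (median -1.58; summed FPKM 1343 to 2119 in WT and 632 to 1009 in Klk6+); the part of fat in the Slc2a4 value was not tested.

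**Figure D3:**
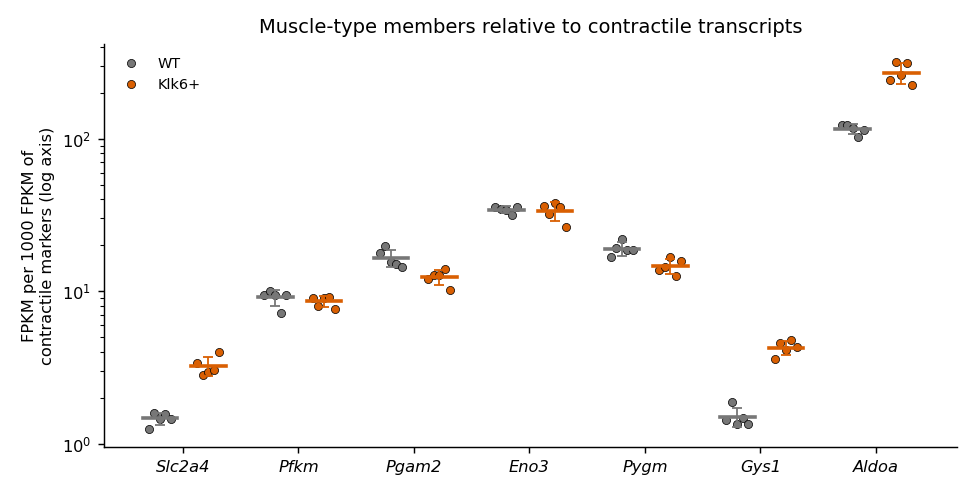
FPKM of 7 members per 1000 summed FPKM of 16 contractile muscle genes in the same library (y axis, log scale; 1 point per mouse, bars are the mean ± SD, n = 5 per genotype). Eno3 and Pfkm overlap between WT and Klk6+, while Slc2a4, Gys1 and Aldoa lie higher in every Klk6+ library than in any WT library.

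Of 6 enzyme genes with no muscle-specific counterpart among the members (Aldoa, Gapdh, Tpi1, Gpi1, Pgk1 and Pkm), 4 fell, 1 rose and 1 was not called. All genes tested were called lower in 35.1% of cases and higher in 37.7%. Aldoa, the aldolase gene of muscle and many other tissues and the most abundant member in both genotypes by FPKM, stood at 4945 ± 727 FPKM in WT and 1173 ± 143 FPKM in Klk6+ (-2.05 ± 0.15 by counts, adjusted p = 1.33e-06). Gapdh, often used as a reference gene, stood at 2498, 2469.8, 3106, 2428 and 2821 CPM in WT and 1179, 1222, 1578, 1134 and 1387 CPM in Klk6+, 2.05-fold lower (-1.04 ± 0.13, adjusted p = 4.59e-05) without overlap. Tpi1 (-0.76 ± 0.10, adjusted p = 8.62e-05) and Gpi1 (-0.38 ± 0.10, adjusted p = 0.0071), which interconvert sugar phosphates, also fell. Contractile transcripts fell in the same libraries, and the part of muscle in these 4 falls was not tested. Pgk1, an ATP-forming kinase, was called higher (0.35 ± 0.13, adjusted p = 0.0296), with overlap between 476 to 679 CPM (WT) and 621 to 850 CPM (Klk6+). The Pgk1 call was lost under 12 of 22 alternatives, among them 4 other scalings and the fits without WT 1, 2, 4 or 5 or Klk6+ 3, 4 or 5 (0.25 to 0.43 with any 1 library left out). Pkm, which makes pyruvate, was not called (-0.13 ± 0.14, adjusted p = 0.413); its M1 and M2 products share the symbol and were not separated here. Counts of Pgk1, Gapdh, Pgam1 and Bnip3 are less sure than others, since 68.0%, 58.4%, 41.5% and 59.1% of their 50-base windows also occur in transcripts of other genes, and the kit does not keep strand. Aldoc, the brain-type aldolase, rose and stood at 9.65 ± 3.26 CPM in WT and 22.4 ± 7.30 CPM in Klk6+ (1.24 ± 0.19, adjusted p = 0.000195) but was below 1% of aldolase FPKM in every library. Summed over the 19 enzyme genes from hexokinase to lactate dehydrogenase, FPKM was 12818 ± 1610 in WT and 5737 ± 624 in Klk6+ (SD, n = 5 each), with lowest and highest values of 11301 and 15337 in WT and 5138 and 6696 in Klk6+. Aldoa (4945 to 1173 FPKM) and Eno3 (1469 to 149 FPKM) made up much of this fall. Others of the 19, Pgk1, Pgam1 and Eno1 among them, rose.

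Hexokinase traps glucose in the cell, and of its 3 genes 1 rose and 2 fell, beside 37.7% higher and 35.1% lower of all genes tested. Hk1, the widely expressed form, rose 1.35-fold (0.43 ± 0.12, adjusted p = 0.0078). It stood at 77.3, 92.4, 63.2, 79.8 and 72.6 CPM in WT and 94.7, 106, 105, 91.2 and 123 CPM in Klk6+, with overlap at WT 2 and Klk6+ 4 only, and the call was lost without Klk6+ 3 and Klk6+ 5 together (0.27, adjusted p = 0.0864). Hk2, the insulin-responsive form of muscle and fat that is also found in growing cells, fell (-0.67 ± 0.14, adjusted p = 0.00181); its FPKM was above that of Hk1 in every WT library and below it in every Klk6+ library. The log2 ratio of Hk2 to Hk1 was 0.79 ± 0.32 in WT and -0.31 ± 0.12 in Klk6+ (difference -1.10, two-sided exact permutation p = 0.00794, adjusted p = 0.00907). The part of muscle and fat in the Hk2 value was not tested. Hk3, a form of leukocytes, was low and fell (-1.22 ± 0.38, adjusted p = 0.0141). It stood at 5.21, 8.26, 8.37, 24.8 and 21.8 CPM in WT and 2.75, 1.81, 7.21, 4.78 and 9.35 CPM in Klk6+, high in the WT females and overlapping between genotypes. All 7 macrophage markers were lower in Klk6+ (median -2.06), and their summed FPKM was also highest in the WT females, at 526, 633, 915, 2027 and 2299.8 in WT and 154, 187, 303, 264 and 504 in Klk6+; the part of macrophages in the Hk3 value was not tested.

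The bifunctional enzymes that set the level of fructose 2,6-bisphosphate, an activator of phosphofructokinase, went apart. Pfkfb3, an inducible form with high kinase activity, fell 2.59-fold (-1.37 ± 0.22, adjusted p = 0.000221), and stood at 39.8, 73.1, 74.0, 115 and 98.9 CPM in WT and 24.5, 22.4, 34.6, 27.0 and 41.3 CPM in Klk6+, with overlap through WT 1 only. Pfkfb2 was called higher by a small margin (0.28 ± 0.11, adjusted p = 0.0461), and the call was lost under 17 of 22 alternatives, among them the fits without WT 2, 3, 4 or 5 or Klk6+ 2, 4 or 5 (0.17 to 0.34 with any 1 library left out), with adjusted p up to 0.217. Pfkfb4, a hypoxia-inducible relative outside the 35, rose (1.01 ± 0.11, adjusted p = 1.33e-05). Of 13 tested genes on a list of other glycolytic and gluconeogenic genes 4 rose and 7 fell (median -0.77). The shares over all genes tested were 37.7% higher and 35.1% lower. Beside Pfkfb4 the rises were Fbp1 (3.93 ± 0.56), Pgm1 (0.78 ± 0.14) and Adpgk (0.50 ± 0.11), named after their values were seen. The muscle fructose bisphosphatase Fbp2 (-3.18 ± 0.27), the phosphoglucomutase gene Pgm2 (-2.47 ± 0.17) and Tigar (-1.20 ± 0.16), a phosphatase that opposes glycolysis, were among the falls.

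Lactate export and the fate of pyruvate involved 5 members, of which 1 rose and 1 fell. Among all genes tested 37.7% rose and 35.1% fell. Slc16a1, a monocarboxylate transporter found in most cells, stood at 74.2, 101, 70.9, 50.0 and 59.5 CPM in WT and 272, 241, 247, 277 and 211 CPM in Klk6+, 3.58-fold higher (1.84 ± 0.15, adjusted p = 3.08e-06) without overlap. Slc16a3, the lactate exporter of strongly glycolytic cells, was not called (0.29 ± 0.25, adjusted p = 0.317). It stood at 62.5, 93.3, 76.3, 98.3 and 79.0 CPM in WT and 65.4, 70.1, 157, 78.2 and 130.1 CPM in Klk6+. Only Klk6+ 3 and Klk6+ 5, the 2 with the most neutrophil transcript, lay above all WT libraries. These 2 were also the highest Klk6+ libraries for 21 of the 35 members, and the part of neutrophils in the Slc16a3 values was not tested. Ldha, which turns pyruvate into lactate, fell 1.31-fold (-0.39 ± 0.12, adjusted p = 0.0144), with Klk6+ 3 overlapping WT. Ldhb, the heart-type subunit, was not called (0.59 ± 0.26, adjusted p = 0.0626). It was above WT in 4 Klk6+ libraries and below it in Klk6+ 5, at 122, 119.6, 119, 107 and 146 CPM in WT and 277, 209.6, 163, 212 and 80.0 CPM in Klk6+. Without Klk6+ 5, Ldhb was called higher (0.75, adjusted p = 0.00187), and without WT 5 as well (0.70, adjusted p = 0.0352). The log2 ratio of Ldhb to Ldha was -3.64 ± 0.23 in WT and -2.72 ± 0.77 in Klk6+ (difference 0.93, two-sided exact permutation p = 0.0556, adjusted p = 0.0556), and without Klk6+ 5 the difference was 1.21 (exact permutation, adjusted p = 0.0159). Pdk1, a kinase that shuts pyruvate dehydrogenase, was not called, at 79.4 ± 7.20 CPM in WT and 81.2 ± 10.5 CPM in Klk6+ (0.03 ± 0.09, adjusted p = 0.789). On the list of pyruvate entry into mitochondria its relatives Pdk2 (-2.49 ± 0.15) and Pdk4 (-2.96 ± 0.59, named after its value was seen) fell and Pdk3 (1.30 ± 0.16) rose. The other changes among its 13 genes were falls of Pdp1 (-1.44 ± 0.12), Pdha1 (-0.57 ± 0.10) and Mpc1 (-0.41 ± 0.14) and a rise of Pdp2 (1.15 ± 0.24), the last 2 named after their values were seen.

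Hypoxia genes did not move as 1 group, with 2 of the 5 members higher, 2 lower and 1 not called. All genes tested also split both ways, 37.7% of them higher and 35.1% lower. Hif1a (chromosome 12, 73901375 to 73947530, plus strand) stood at 119, 153, 126, 99.8 and 113 CPM in WT and 457, 521, 656, 525 and 562 CPM in Klk6+, 4.48-fold higher (2.16 ± 0.13, adjusted p = 6.94e-07), with the lowest Klk6+ library at about 3 times the highest WT library. Egln3, an oxygen-dependent prolyl hydroxylase that marks the alpha subunit for destruction and is itself a target of the factor, stood at 41.4, 51.9, 59.5, 54.8 and 44.9 CPM in WT and 173, 117, 182, 123 and 278 CPM in Klk6+ (1.78 ± 0.23, adjusted p = 6.22e-05), highest in Klk6+ 5. Bnip3, which encodes a protein of mitophagy, fell 2.27-fold and stood at 169, 170.0, 265, 198 and 218 CPM in WT and 104, 63.3, 118, 68.5 and 95.8 CPM in Klk6+ (-1.18 ± 0.20, adjusted p = 0.000361). Ndrg1, a stress-responsive gene of epithelium and nerve, also fell and stood at 200.1 ± 12.7 CPM in WT and 125 ± 13.8 CPM in Klk6+ (-0.68 ± 0.10, adjusted p = 0.000104), without overlap. Ddit4, an inhibitor of the growth kinase mTOR, was not called (-0.43 ± 0.25, adjusted p = 0.149), with WT 2 at 211 CPM and the other WT libraries at 83.3 to 129. Muscle also transcribes Bnip3, and whether the muscle share of the samples bears on its fall was not tested.

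**Figure D4:**
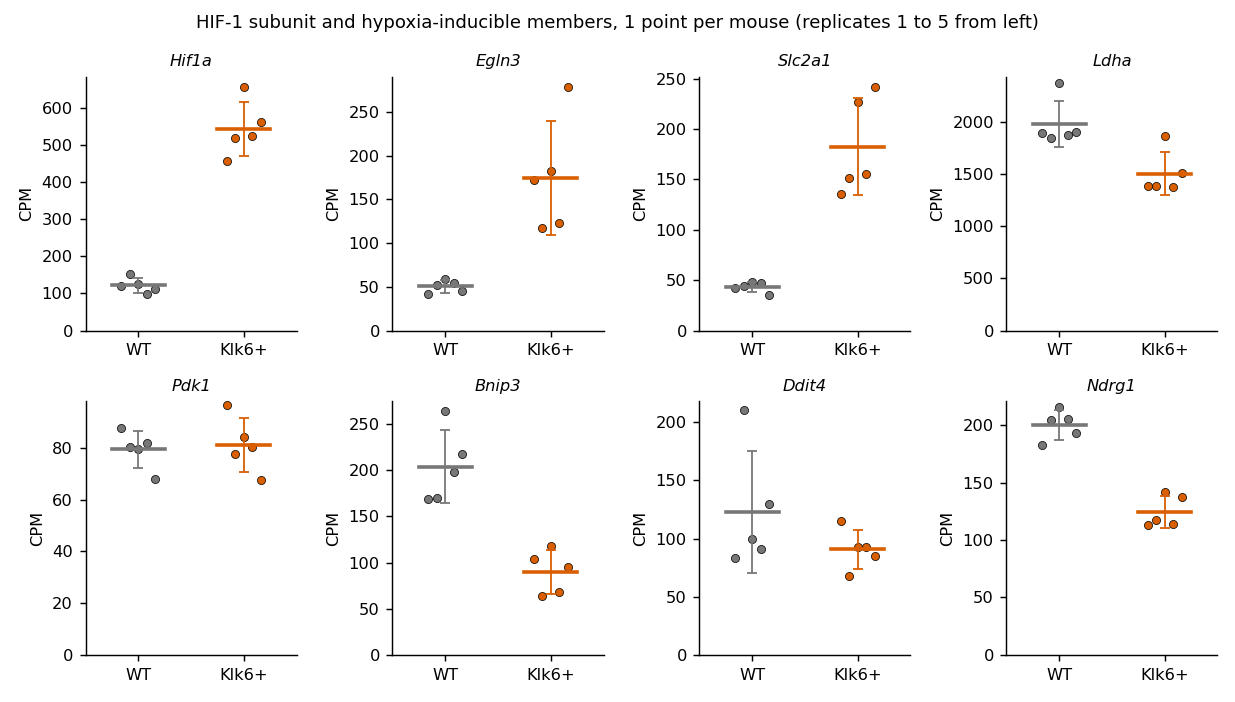
CPM (y axis from 0) of Hif1a and 7 members known as hypoxia-inducible, 1 point per mouse with the mean ± SD (n = 5 per genotype). Hif1a, Egln3 and Slc2a1 are higher in every Klk6+ library, Bnip3 and Ndrg1 are lower in every one, and Pdk1 and Ddit4 overlap.

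Genes outside the 35 moved both ways too. Of 20 other hypoxia-inducible genes 10 rose and 7 fell (median 0.40), beside 37.7% higher and 35.1% lower of all genes tested. The rises included Ero1l (2.84 ± 0.13), an oxidase of the endoplasmic reticulum, Fam162a (2.40 ± 0.12), the cytokine Mif (1.57 ± 0.11) and the Bnip3 relative Bnip3l (1.13 ± 0.10). The 7 falls (chosen for naming once their values were known) were the peptide hormone gene Adm (-2.04 ± 0.41), the collagen-modifying enzymes Lox (-1.57 ± 0.18), P4ha1 (-1.13 ± 0.14), P4ha2 (-1.06 ± 0.13) and Plod2 (-1.09 ± 0.33), the lipase inhibitor Angptl4 (-0.81 ± 0.32) and Egln1, which is also on the next list. The list for oxygen sensing and the other subunits had 0 of 9 higher and 5 lower. These were Hif1an (-1.02 ± 0.09), which encodes an asparaginyl hydroxylase that restrains the factor, the prolyl hydroxylase Egln1 (-0.58 ± 0.09), and the partner subunits Arnt2 (-1.12 ± 0.24) and Arnt (-0.37 ± 0.08), with Epas1 (-0.31 ± 0.08), the gene of another alpha subunit, named after its value was seen. Endothelial markers were lower in all 6 cases (median -0.81; summed FPKM 77.1 to 108 in WT and 44.0 to 61.5 in Klk6+), and what vessel transcripts contribute to these lists was not tested.

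Promoters of a pair of hypoxia members are shown because both hold several response element cores while the genes moved apart; capitals mark the cores, on either strand, in the 250 bases before the start. Hif1a lies at chr12:73907617-73907866 on the plus strand and Bnip3 at chr7:138909507-138909756 on the minus strand (RefSeq, GRCm38.p6).
Hif1a: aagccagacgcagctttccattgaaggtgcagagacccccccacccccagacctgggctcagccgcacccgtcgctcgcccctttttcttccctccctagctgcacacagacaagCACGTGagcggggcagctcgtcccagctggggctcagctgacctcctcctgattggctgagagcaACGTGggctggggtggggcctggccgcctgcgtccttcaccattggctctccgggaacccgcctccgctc
Bnip3: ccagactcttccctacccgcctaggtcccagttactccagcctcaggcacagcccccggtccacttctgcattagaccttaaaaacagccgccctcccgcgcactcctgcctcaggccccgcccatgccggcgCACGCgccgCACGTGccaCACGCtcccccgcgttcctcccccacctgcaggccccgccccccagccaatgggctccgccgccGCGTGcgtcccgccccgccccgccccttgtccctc
RefSeq promoters were matched for 32 of the 35 members, with 47 starts in all. A core was present in 38 of the 47 windows (80.9%), in 17 of 18 for members that rose (94.4%) and in 16 of 22 for members that fell (72.7%), against 52.4% of windows for all genes tested and 38.6% of all promoters. Members were chosen by name, and many glycolytic genes are known targets of hypoxia-inducible factor 1. The members' share above background therefore describes the list and is no result of these mice. The core contains a CG pair, and the median GC content was 60.4% in members, 58.8% for genes tested and 52.4% over all promoters. CACGTG, which is both an E-box and 2 overlapping cores, was present in 14.9% of member windows and 7.80% of those of genes tested. The MEF2 motif of muscle promoters in a strict form (CTA, then 4 letters of A or T, then TAG) was in 0 member windows and in 0.447% of those of genes tested. A looser form chosen after seeing the data, with C or T as the first letter and A or G as the last, was in 1 member window, that of Pgam2, and in 1.79% of those of genes tested. Windows of 1 gene overlap in part, so they are not independent.

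Neighbouring routes of glucose use also changed. In the pentose phosphate pathway, which makes NADPH and ribose, 7 of 8 genes rose and 1 (H6pd, named after its value was seen) fell, with a median of 1.10. Over all genes tested 37.7% were called higher and 35.1% lower. G6pdx, the gene of the first and rate-limiting enzyme, rose by 1.23 ± 0.08 (adjusted p = 9.07e-07), Rpe by 1.02 ± 0.07, Pgd by 1.60 ± 0.12 and Tkt by 1.37 ± 0.14. Of 10 tested genes on a list of other genes of sugar and monocarboxylate transport 1 rose and 5 fell. The rise was the sodium-glucose cotransporter Slc5a1 (5.01 ± 0.33, adjusted p = 9.32e-07), at 9.85 ± 5.30 CPM in WT and 302 ± 61.9 CPM in Klk6+. The falls were Slc2a10 (-1.02 ± 0.15), Slc2a13 (-1.83 ± 0.30), Slc2a8 (-0.88 ± 0.15) and, named after their values were seen, Slc2a12 (-1.49 ± 0.26) and Slc16a7 (-1.33 ± 0.30). Of 7 keratinocyte markers 4 were higher, Krt14 (3.52 ± 0.27), Krt1 (2.78 ± 0.28), Krt5 (1.09 ± 0.23) and Dsg3 (1.88 ± 0.36), and Krt10 was lower (-0.54 ± 0.19), the last 2 named after their values were seen. Their median was 1.09 and their summed FPKM 2185 to 6499 in WT and 9794 to 13524 in Klk6+. Their part in the rise of Slc2a1, Pfkl, Pgam1, Hif1a and the pentose phosphate genes was not tested.

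In both sexes most members moved the same way, and 34 of 35 had the same sign, Pdk1 being the exception. The share of all genes with the same sign was not computed, so this count cannot be set against a background. Within males 10 members were called higher and 14 lower, and within females 10 and 14. Ldhb was called higher within males alone, where Klk6+ 5, a female, does not enter the means. Of all genes, 64.4% were called in males (33.4% higher, 31.0% lower) and 59.6% in females (31.2% higher, 28.4% lower). The log2 fold change of Pgam2 was -3.67 ± 0.19 in males and -3.77 ± 0.24 in females, that of Pgam1 2.24 ± 0.16 in males and 2.26 ± 0.20 in females, and that of Hif1a 2.04 ± 0.16 in males and 2.36 ± 0.20 in females. No member passed the genotype-by-sex interaction (edgeR; 1 of 35, Pfkfb2, at an unadjusted p below 0.05, against 9.49% of all genes), and none did by DESeq2, where 1.77% of all genes were called. For Pfkfb2 the values were 0.07 ± 0.11 in males and 0.59 ± 0.13 in females (interaction adjusted p = 0.383). With 2 females per genotype these data cannot show a small difference between the sexes.

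Single mice varied along shared lines. In WT, 22 of the 35 members (62.9%) were highest in WT 3, as were 19.2% of all genes tested, and WT 3 also had the highest contractile sum. In Klk6+, Klk6+ 3 and Klk6+ 5 were the 2 highest libraries for 21 members (60.0%), against 18.3% of all genes. These included all 6 general isoforms and Hif1a, but of the 5 muscle isoforms only Pygm. The same 2 libraries had the highest neutrophil sums and, within Klk6+, the highest sums of erythroid marker FPKM (1195 and 3071 against 199 to 421). The highest in WT was WT 3, at 3543, and of the 3 erythroid markers tested 1 (Slc4a1, 1.82 ± 0.72, named after its value was seen) was called higher. Most of the erythroid sum was Hba-a1, at mean FPKM of 789 in WT and 867 in Klk6+ but with 7 and 5 counted reads in all. Its counts and FPKM disagree and it was not tested, so the erythroid sums are a poor guide. The part of neutrophils and erythroid cells in the shared order was not tested. Leaving out both Klk6+ 3 and Klk6+ 5 was among 22 alternatives to the fit. Under all 22, 26 of the 29 called members kept their call and direction, the exceptions being Hk1, Pfkfb2 and Pgk1.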

How the data were processed

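RNA-seq of skin from 5 Klk6+ and 5 WT mice was used. Per the submitters' processing notes, TopHat2, SAMtools, HTSeq and Cufflinks 2.2.1 were used with GRCm38 (mm10). Their roles, the annotation and any strand option are not given in these sources. The authors deposited, per mouse, a read count and an FPKM value for each gene. Counts were tested in edgeR 4.0.16 (R 4.3.3): filterByExpr left 14861 of 20611 genes, with TMM scaling, sex as covariate and Benjamini-Hochberg adjustment over all genes tested. Isoform ratios are log2 ratios of deposited FPKM within a library, tested by exact permutation over 252 assignments with SciPy 1.17.1. Gene coordinates are from GENCODE M21 and promoters from RefSeq GRCm38.p6. The code was tested on simulated data. The 35 members and the 14 other lists were chosen with earlier results of these data known, so lists carry no test. Named genes are all members and, of other lists, up to 4 called genes of smallest p, or the 3 marker genes of highest level. Alternatives were other scalings, no filter, DESeq2 1.42.0, limma 3.58.1 on counts and on log2 FPKM, no sex term, and each library left out. Leaving out both Klk6+ 3 and Klk6+ 5 and summing Eno1 with Eno1b were chosen after seeing the data.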

Additional observations from a re-analysis of the deposited data

Results flagged for a closer look

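In 8 of the 86 groups of 5 libraries examined (members and ratios by genotype), the highest library stood apart from the others by more than 0.71 of the whole range, the Dixon critical value for 5 samples. Chance alone would mark about 1 group in 20 if the groups were independent and the values normally distributed. These groups share the same mice and the members vary together, so the 8 of 86 cannot be set against that rate. Tpi1 was at 1254 CPM in WT 3, against 981 to 1006 CPM in the other WT libraries, and at 731 CPM in Klk6+ 3, against 584 to 602 CPM in the other Klk6+ libraries. Ldha followed the same libraries, at 2378 CPM in WT 3 (others 1850 to 1910 CPM) and 1865 CPM in Klk6+ 3 (others 1382 to 1514 CPM). Hk2 was at 152 CPM in Klk6+ 5, where the others were at 97.9 to 111 CPM. Aldoc was at 35 CPM in Klk6+ 1 (others 17.2 to 22.2 CPM), Pfkp at 75.9 CPM in WT 2 (others 60.9 to 65.1 CPM), and Pfkfb2 at 37.2 CPM in Klk6+ 2 (others 33.4 to 34.4 CPM). None of these changed the direction of its gene when that library was left out.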

How the results depend on the processing

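Of the 29 members called, 26 kept call and direction under all 22 alternatives and the other 3 (Hk1, Pfkfb2, Pgk1) kept their direction. Of the 6 not called, Pdk1, with a log2 fold change of 0.03, was -0.012 with DESeq2 size factors and with DESeq2, -0.070 with upper-quartile scaling, -0.023 with library size only and -0.041 with TMM scaling without muscle genes, and -0.066 to 0.076 with 1 library left out. Slc2a3 ranged over -0.37 to 0.011 and Slc16a3 over -0.015 to 0.42 with 1 library left out, and Slc16a3 was -0.25 without Klk6+ 3 and Klk6+ 5. The log2 ratio of Ldhb to Ldha, with a difference of 0.93, reached 1.45 (exact permutation, adjusted p = 0.0357) without these 2 libraries and ranged over 0.73 to 1.21 with 1 left out. The scalings moved the median of all genes by at most -0.10. Genes called for the interaction numbered 0 with edgeR, 263 with DESeq2, 4 without WT 3 and 1 without Klk6+ 4, with 0 members in each. No paired analysis was possible because the labels give each mouse a number of its own, and replicates 1 to 5 here are names in accession order. With 5 mice a genotype, 3 against 2 by sex, small differences are not detectable, and the labels do not say which WT mice carried a transgene.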

Other observations

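Within WT, Hk3 and Pfkfb3 stood higher in the 2 females than in the 3 males. Hk3 was at 24.8 and 21.8 CPM in the females and 5.21 to 8.37 CPM in the males, and Pfkfb3 at 115 and 98.9 CPM against 39.8 to 74.0 CPM. The summed FPKM of macrophage markers in the same mice was 2027 and 2300 in the females and 526 to 915 in the males. The difference between the sexes within WT was not tested, and in Klk6+ the females did not stand apart for Hk3, with Klk6+ 3, a male, at 7.21 CPM between the 2 females.

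By FPKM, the order of the members changed. Eno3, Pygm and Pgam2 ranked 3, 5 and 7 among the 35 in WT and 10, 14 and 16 in Klk6+. Pgam1 ranked 16 in WT and 7 in Klk6+, and Hif1a 22 in WT and 12 in Klk6+. Aldoa and Gapdh ranked 1 and 2 in both.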
